A study of Mus musculus with 2 samples.

Results

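The region described here is the part of an aged mouse ovary section in which Adamts1 RNA made up the highest share of the counts. Bead positions of the old section were grouped into square bins of 70 position units a side, bins with at least 500 counts were kept, and the 20% of kept bins with the highest Adamts1 share were taken as members. This gave 176 member bins of 884 kept bins in the old section, and of 2190 kept bins in both sections of the series. The other 708 kept bins of the old section are the comparison throughout. Because measured Adamts1 values chose the members, Adamts1 levels are given only as a description.

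The series holds Slide-seq libraries, in which polyadenylated RNA from a 10 µm frozen section is caught on a layer of beads whose barcodes give their position. The old section (Old_1) came from C57BL6/J females of about 14 months and the young section (Young_3) from C57BL6/J females of 2 months, each cohort being 2 animals. No treatment or engineered allele is named in the labels, and the plane of each section was chosen by the authors to show several oocytes. With 1 library per age, bins of a section are not replicates, so no p-value is given and all 95% intervals cover counting error only. Levels are given as CPM, the counts of a gene scaled to all counts of the named bins, and ratios divide the CPM of the members by that of the other bins.

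Adamts1 encodes a secreted protease that granulosa cells make after the luteinising hormone (LH) surge and that cuts versican in the matrix of the ovulating follicle. In the hours before ovulation the follicle also makes EGF-like ligands, prostaglandins and a hyaluronan-rich matrix around the cumulus cells, and its granulosa cells stop dividing and begin to turn into progesterone-forming luteal cells. Vcan encodes versican, and Timp1 encodes an inhibitor of matrix metalloproteinases. Both were named with Adamts1 as markers of the region.

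In RefSeq's promoter table (build GRCm38.p6), which holds 250 bases before and 50 after each gene start, 10 of the 15 genes highest in the members had an entry. The 4 promoters shown belong to the gene that defines the region, to the gene with the highest ratio among those with at least 50 counts (Edn2), to an abundant gene among the 15 highest (Spp1) and to the gene with the highest ratio among the measured glycolysis and hypoxia genes (Bnip3). They are written 5′ to 3′ on the strand of the gene. Capitals mark matches to the RUNX core TGTGGT and the hypoxia response core ACGTG on either strand, and to the TATA box TATAAA on the gene's strand. The cAMP response element TGACGTCA was searched too and matched in none of these 4.
Adamts1: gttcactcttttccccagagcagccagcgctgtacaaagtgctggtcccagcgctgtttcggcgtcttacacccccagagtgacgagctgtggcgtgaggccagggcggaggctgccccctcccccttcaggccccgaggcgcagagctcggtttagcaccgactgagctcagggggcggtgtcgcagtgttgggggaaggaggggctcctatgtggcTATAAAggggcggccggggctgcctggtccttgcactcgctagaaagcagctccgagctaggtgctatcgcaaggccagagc
Edn2: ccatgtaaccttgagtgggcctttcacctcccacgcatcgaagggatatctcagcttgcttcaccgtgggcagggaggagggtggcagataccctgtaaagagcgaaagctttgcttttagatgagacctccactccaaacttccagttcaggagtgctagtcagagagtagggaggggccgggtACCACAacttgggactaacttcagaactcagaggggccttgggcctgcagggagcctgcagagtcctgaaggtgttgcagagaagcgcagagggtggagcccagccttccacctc
Spp1: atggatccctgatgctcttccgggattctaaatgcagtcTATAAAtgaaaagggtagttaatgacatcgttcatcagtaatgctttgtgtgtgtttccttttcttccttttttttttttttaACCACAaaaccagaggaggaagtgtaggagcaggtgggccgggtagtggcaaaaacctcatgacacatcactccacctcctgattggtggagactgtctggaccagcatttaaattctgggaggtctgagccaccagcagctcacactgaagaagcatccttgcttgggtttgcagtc
Bnip3: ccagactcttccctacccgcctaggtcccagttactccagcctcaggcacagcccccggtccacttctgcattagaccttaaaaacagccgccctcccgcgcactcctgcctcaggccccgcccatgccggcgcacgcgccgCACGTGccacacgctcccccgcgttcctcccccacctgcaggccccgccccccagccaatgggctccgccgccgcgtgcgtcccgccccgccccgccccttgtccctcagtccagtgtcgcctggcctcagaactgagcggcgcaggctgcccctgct
The Adamts1 promoter lies at chr16:85803064-85803363 on the minus strand, that of Edn2 at chr4:120160956-120161255 on the plus strand, that of Spp1 at chr5:104434861-104435160 on the plus strand and that of Bnip3 at chr7:138909457-138909756 on the minus strand. Spp1 has 2 entries in the table, of which the first is shown. Adamts1 held 1 match to TATAAA, Edn2 held 1 RUNX core, Spp1 held 1 of each, and Bnip3 held 2 hypoxia response cores that overlap in a palindrome. The TATAAA of Spp1 lies near the 5′ end of the sequence, far from the gene start, and that of Adamts1 lies nearer to the gene start. The hypoxia response core occurred in 12 of the 17 glycolysis and hypoxia genes with a promoter, or 70.6%, against 21.8% of all 27025 genes in the table. Counted by promoter, it was in 13 of 24 promoters of the list, or 54.2%, against 19.6% of all 32851. The list was put together from glycolysis and hypoxia genes, so these shares describe the list and not the region. The RUNX core occurred in 2 of the 10 highest genes with a promoter, Edn2 and Spp1, or 20%, against 18.9% of all genes. A match is a description of these letters and not evidence of binding.

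The Adamts1 counts of the old section were concentrated in the members. Member bins held 3257 Adamts1 counts and other bins 281, so that 32.9% of the kept counts carried 92.1% of the Adamts1 counts. Levels were 4321 CPM in members and 182 CPM in other bins. A member bin had at least 1, a median of 14.5 and at most 68 Adamts1 counts, and an other bin had a median of 0 and at most 5. At the edge of the ranking, the last member had 1 Adamts1 count among 740 counts and the first bin left out had 2 among 1492, so members near the edge rest on very few counts.

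Both named markers were higher in the members. A member bin had a lowest, median and highest Vcan level of 0, 2904 and 8127 CPM, and an other bin of 0, 0 and 3717 CPM. Summed over bins, Vcan stood at 3423 CPM in members and 251 CPM in other bins, a ratio of 13.7 (12.3 to 15.2). For Timp1 the lowest, median and highest bin had 0, 3470 and 12392 CPM among members and 0, 981 and 9402 CPM among other bins. Timp1 stood at 3752 CPM in members and 1468 CPM in other bins, a ratio of 2.56 (2.42 to 2.70). With the top 10% of bins as members, the ratios were 6.00 for Vcan and 1.64 for Timp1. The ranges of single bins overlapped for both genes, and Timp1 was common outside the members, with a count in 541 of 708 other bins. Some genes of the hours just after the LH surge had very few counts in both groups: Has2, the hyaluronan synthase of cumulus cells, had 0 and 1 counts in members and other bins, Ptx3 had 3 and 8, Areg had 3 and 0, and Pgr, the progesterone receptor, had 0 and 2. Ereg, which encodes the EGF-like ligand epiregulin, was sparse too but lay mostly in members, with 11 and 1 counts, a ratio of 22.5 (3.27 to 967). These sparse genes were picked out after their values were seen.

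Member bins were richer in RNA counts than the others. The median bin held 3986 counts among members and 1886 among other bins, over a median of 10 beads in each, which is a median of 418 and 189 counts per bead. Thinned to 500 counts, a median of 425 and 418 genes were detected. Mitochondrial genes made up 0.998% of counts in members and 1.51% in other bins. Whether the depth of a bin takes part in the ratios was not tested beyond thinning and equal weighting. In such bins fewer cells of a type and less RNA per cell cannot be told apart.

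The members formed 2 compact patches. Of 15 patches of touching bins, 2 had at least 10 bins and together held 159 of the 176 members, or 90.3%, and 90.9% of the Adamts1 counts of all kept bins. Patch 1, on the high-x and low-y side of the section, had 90 bins within an area of 11 by 13 bins, 494402 counts and 4148 CPM of Adamts1. Patch 2, on the low-x and low-y side, had 69 bins within 12 by 10 bins, 244934 counts and 4756 CPM. The nearest bins of the patches lay 11 bins apart. The other 17 members, 12 of them single bins, held 41 Adamts1 counts in all, 1 to 12 per bin with a median of 2. One of these single bins, with 12 of its 988 counts from Adamts1, consisted of 1 bead far outside the outline of the section. Patch 2 enclosed 3 bin positions that were not kept, each with 1 bead and with 18, 38 and 348 counts. Of the members, 40.9% lay within 2 bins of the section's outline, against 24.6% of the other bins.

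**Figure D1:**
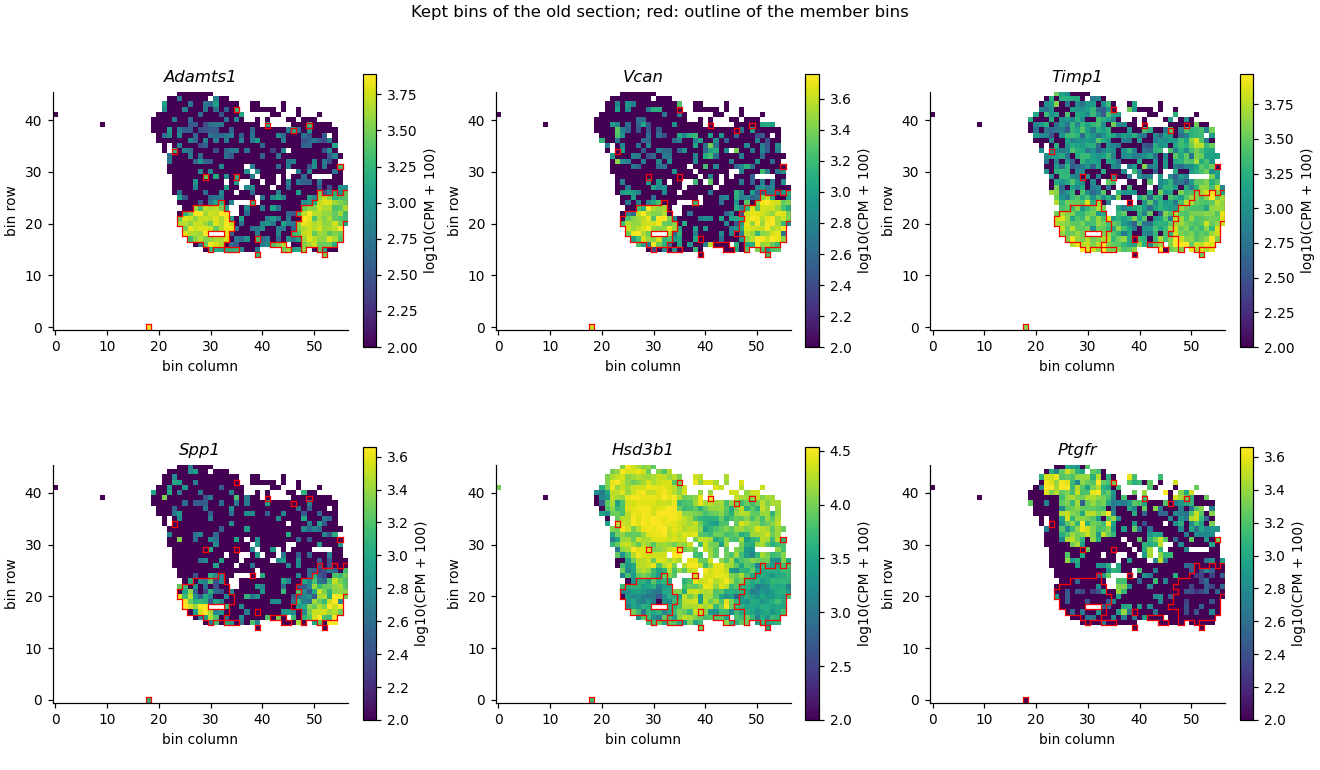
Maps of the 884 kept bins of the old section by bin column and row, coloured by log10(CPM + 100) of Adamts1, Vcan, Timp1, Spp1, Hsd3b1 and Ptgfr, with the outline of the 176 member bins in red. Adamts1 and Vcan fill the 2 large patches of 90 and 69 bins, Timp1 extends beyond them, and Hsd3b1 and Ptgfr are low inside them.

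Across all other genes the members differed from their surroundings in both directions. Of 7751 genes with at least 50 counts, 1031 (13.3%) were at least 1.5-fold higher in members and 1603 (20.7%) at least 1.5-fold lower, with a median ratio of 0.951. For 440 genes (5.68%) the lower bound of the interval was itself above 1.5. At least 5-fold higher were 78 genes, and at least 5-fold lower 157. With a trimmed-mean scaling, which moves the median ratio to 1.02, the split was 1295 higher and 1315 lower, against 1031 and 1603, so the excess of lower genes depends on the scaling. These calls share the bins that the ranking chose and describe this section only.

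The genes with the highest ratios included signals and enzymes of the ovulating follicle. Edn2, which encodes the smooth muscle-contracting peptide endothelin 2, had 79 counts in members and 6 in other bins, a ratio of 26.9 (11.8 to 75.5). Prkg2, a cGMP-dependent protein kinase, had 254 counts and 22 counts, a ratio of 23.6 (15.2 to 38.3). Zbtb16, a zinc finger transcription factor, had a ratio of 23.3 (9.42 to 74.5). Most bins with a count of these 3 genes were members: Edn2 had a count in 48 member bins and 6 other bins, Prkg2 in 108 and 21, and Zbtb16 in 42 and 5. Bves, a membrane protein of the Popeye family that binds cAMP, reached 963 CPM in members against 60.4 CPM in other bins, a ratio of 15.9 (12.8 to 20.0).

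Further down the ranking stood Maff, a small Maf transcription factor, at 15.5, and Kl, which encodes the FGF23 coreceptor klotho, at 13.6. Spp1, which encodes the secreted phosphoprotein osteopontin, had a lowest, median and highest bin level of 0, 835 and 8245 CPM among members and 0, 0 and 6803 CPM among other bins. Its summed level was 1473 CPM in members and 119 CPM in other bins, a ratio of 12.4 (10.6 to 14.6). Spp1 is also a macrophage product, and the macrophage gene Lyz2 stood at 21.2 CPM in members and 228 CPM in other bins. Which cells the Spp1 counts came from was not tested. Ptgs1, the constitutive cyclooxygenase, had a ratio of 11.4 (9.22 to 14.1) and F3, which encodes tissue factor, the starter of blood clotting, one of 11.2 (8.78 to 14.5). Igsf3 at 11.9, the complement lectin-pathway protease Masp1 at 11.6, Parm1 at 11.2, the myosin gene Myh13 at 11.2 and Vcan, given above, were also among the 15 highest, of which 14 are described. With bins thinned to 500 counts, the ratio of Masp1 was 1.34. Each of the 14 genes was higher in patch 1 and in patch 2 than in the other bins. The patches hold most of the member counts by which these genes were chosen, so this is a description only.

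**Figure D2:**
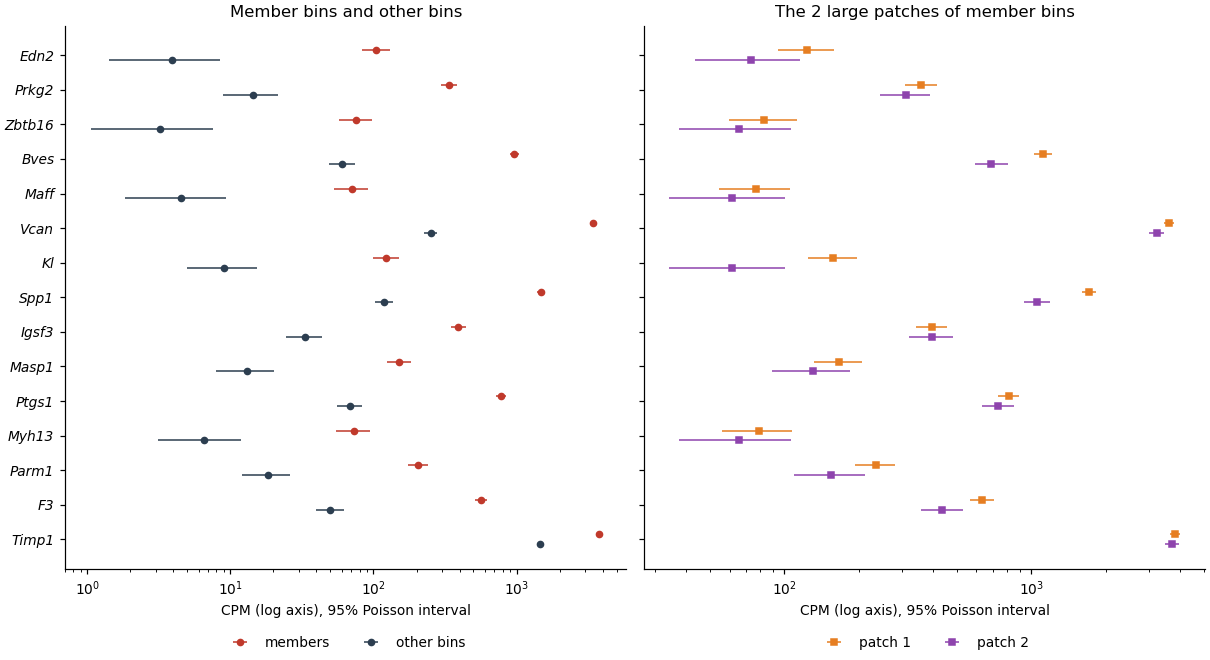
CPM on a log axis of 14 of the 15 genes with the highest ratios and of Timp1, with 95% Poisson intervals for counting error, in member and other bins (left) and in patches 1 and 2 (right). Edn2, at the top, stands at 105 CPM in members and 3.90 CPM in other bins, and the levels of the patches lie close together compared with the gap to the other bins.

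The lowest genes were those of oocytes and of other cells. H1f8, an oocyte linker histone, had 0 counts in members and 101 in other bins, which is at least 16.5-fold lower against a floor of 3 counts over all members. Elobl had 0 and 59 counts, at least 9.63-fold lower, and the kinase gene Mapk10 had 0 and 55, at least 8.98-fold lower. Onecut2, a homeobox gene of the luteal list, had 1 count in members and 104 in other bins, a ratio of 0.0196 (0.000493 to 0.112). The immunoglobulin light chain gene Igkc had 1 and 83 counts, and Mrc1, the macrophage mannose receptor, had 1 and 50. Khdc1b, Gpm6a, Tmem184a and Col6a5 had ratios of 0.0358, 0.0385, 0.0409 and 0.0531.

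Gene lists were counted over list genes with at least 20 counts in members and other bins together. A gene could therefore pass through its counts in the members alone. The lists were also put together with earlier results of these data known, so their counts and ratios are a description only. Among all genes with at least 20 counts, 13.7% of 10474 were at least 1.5-fold higher and 26.3% at least 1.5-fold lower, with a median ratio of 0.917. In the cumulus matrix list, of genes that build or remodel the ovulatory matrix, all 8 measured genes of 12 were at least 1.5-fold higher, with a median ratio of 3.36. The list genes with fewer than 20 counts all had ratios below 1. In members and other bins Has2 had 0 and 1 counts, Ptx3 3 and 8, Hapln1 1 and 3, and Adamts15 1 and 10. The summed list had 5365 CPM in members and 888 CPM in other bins, a ratio of 6.04 (5.68 to 6.42), and of 3.05 without Vcan. Tnfaip6, whose product binds hyaluronan, had a ratio of 7.35 (2.63 to 25.3) on 18 and 5 counts, so it passed the minimum mostly through the members. Adamts5, another versican-cutting protease, had a ratio of 5.24 (3.19 to 8.89), and the syndecan gene Sdc1, a cell-surface proteoglycan, one of 3.54 (3.15 to 3.98). Sdc4 stood at 2.71, Cd44, the hyaluronan receptor, at 2.16 and Adamts9 at 2.11.

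Of 10 measured genes for EGF-like ligands and prostaglandins, 4 were higher by at least 1.5-fold and 4 lower by that size, with a median ratio of 1.04. Btc, which encodes the EGF-like ligand betacellulin, had 36 counts in members and 2 in other bins, a ratio of 36.8 (9.47 to 315). Slco2a1, the prostaglandin uptake transporter, had 572 CPM in members and 97.4 CPM in other bins, a ratio of 5.87 (4.86 to 7.12). On the other side were Ptger2, a prostaglandin E2 receptor, at 0.160 (0.0501 to 0.392), Abcc4, a prostaglandin exporter, at 0.552 (0.245 to 1.13), and Ptges, a prostaglandin E synthase, at 0.565 (0.407 to 0.772). The inducible cyclooxygenase gene Ptgs2, picked out after its value was seen, had 23 and 9 counts, a ratio of 5.22 (2.33 to 12.8).

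Of 14 measured transcription factors and regulators linked to the LH surge, 9 were higher by at least 1.5-fold and 2 lower by that size, with a median ratio of 2.99. Runx1 had 1088 CPM in members and 127 CPM in other bins, a ratio of 8.59 (7.34 to 10.1). Cebpa and the cell cycle regulator gene Rgcc had ratios of 5.80 (4.25 to 8.01) and 5.53 (4.65 to 6.61). Cited2, a transcription cofactor, stood at 1384 CPM in members and 252 CPM in other bins, a ratio of 5.49 (4.88 to 6.19). Cebpb, a transcription factor needed for luteal differentiation in mice, had a ratio of 2.50 (2.26 to 2.76). Nrip1, a corepressor needed for ovulation in mice, was lower at 0.606 (0.469 to 0.776), Nr4a1 was 0.638 (0.183 to 1.82) and the immediate early gene Egr1 was 0.953 (0.619 to 1.44).

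In the list of ovulation effectors 9 of 10 measured genes were at least 1.5-fold higher, with a median ratio of 9.40 and a summed ratio of 6.89 (6.22 to 7.64). Edn2, Prkg2 and Zbtb16, given above among the 15 highest genes, are part of this list, so its numbers are not separate support. Snap25, a protein of vesicle fusion, had 37 counts in members and 3 in other bins, a ratio of 25.2 (7.98 to 128). Rhox8, a homeobox gene, had 702 CPM in members and 81.2 CPM in other bins, a ratio of 8.64 (7.10 to 10.6). Vegfa, the main growth factor for blood vessels, had a ratio of 3.43 (2.89 to 4.07), and Nts, which encodes neurotensin, one of 4.81 (3.05 to 7.78). The gene lower by that size was Adcyap1, the peptide PACAP, at 0.567 (0.165 to 1.59) on 5 and 18 counts.

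Proteases, their inhibitors and the matrix divided. Of 16 measured genes of the protease list, 6 were higher by at least 1.5-fold and 6 lower by that size, with a median ratio of 0.913. Ctsl, which encodes the lysosomal protease cathepsin L, had 3406 CPM in members and 1002 CPM in other bins, a ratio of 3.40 (3.19 to 3.62). Mmp14, a membrane-bound collagenase, Mmp11 and Timp3 were lower, at 0.413 (0.279 to 0.597), 0.494 (0.366 to 0.658) and 0.540 (0.422 to 0.685). Of 25 measured matrix genes, 5 were higher by at least 1.5-fold and 13 lower by that size, with a median ratio of 0.665. Beside Spp1 the higher ones included Loxl2, which crosslinks collagen, at 4.85 (4.22 to 5.59) and the laminin gene Lamc1 at 2.65 (2.09 to 3.36). Sparc, which encodes a collagen-binding protein, had 3571 CPM in members and 3204 CPM in other bins, a ratio of 1.11 (1.06 to 1.17). Col3a1, a fibrillar collagen, stood at 398 CPM and 1347 CPM, a ratio of 0.295 (0.261 to 0.334), and Col6a2, elastin (Eln) and periostin (Postn) at 0.154, 0.178 and 0.0817.

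Steroid synthesis genes lay on both sides of the level of the other bins, with Hsd3b1 and Hsd17b7 far below it. Hsd3b1, the enzyme that forms progesterone, had a lowest, median and highest bin level of 0, 3338 and 29730 CPM among members and 0, 13314 and 44608 CPM among other bins. Its summed level was 3252 CPM in members and 14634 CPM in other bins, a ratio of 0.222 (0.213 to 0.232). Hsd17b7 had 79.6 CPM in members and 759 CPM in other bins, a ratio of 0.105 (0.0795 to 0.136). Cyp11a1, which makes the first steroid from cholesterol, was high in both groups, at 7143 CPM in members and 9784 CPM in other bins, a ratio of 0.730 (0.708 to 0.753). Fdx1, which hands electrons to Cyp11a1, was higher, with a ratio of 2.03 (1.93 to 2.15). Star, which brings cholesterol to the inner mitochondrial membrane, had a ratio of 1.26 (1.18 to 1.36), and Fdxr, the reductase of Fdx1, had 1.26 (1.18 to 1.35). Over the 10 measured steroid genes 1 was higher by at least 1.5-fold and 4 lower by that size, with a median ratio of 0.949, and the summed ratio of 0.592 was 0.945 without Hsd3b1.

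Ptgfr, the prostaglandin F2 alpha receptor through which the corpus luteum regresses, stood at 76.9 CPM in members and 805 CPM in other bins, a ratio of 0.0956 (0.0722 to 0.124). Of 8 measured luteal genes 3 were at least 1.5-fold lower and 1 higher, with a median ratio of 0.730. Lhcgr, the LH receptor, and the HDL receptor gene Scarb1 were 0.781 and 0.719, Sfrp4 was 0.508 and Akr1c18, which inactivates progesterone, was 1.18. The summed luteal ratio was 0.595 (0.568 to 0.622), but 1.11 when bins of low x and high y were left out. The 176 bins highest in Ptgfr, which are 20% of the kept bins, held 4 of the members, or 2.27%. The 176 bins highest in Hsd3b1, again 20% of the kept bins, held 3 of the members, or 1.70%. Against the 172 of these Ptgfr bins that were not members, the members had 3423 against 147 CPM of Vcan, 1088 against 72.5 CPM of Runx1 and 249 against 12.1 CPM of Rrm2. Fdx1 was at 3384 CPM in members and 2323 CPM in these Ptgfr bins, and Star at 1554 and 1922 CPM. Cholesterol synthesis genes lay on both sides, with 5 of 17 measured genes at least 1.5-fold higher, 2 lower and a median ratio of 1.21. Among the higher genes were Insig1 and Mvk, both at 1.62, and the lowest ratios were 0.482 for Sc5d and 0.630 for Hmgcs1.

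Granulosa genes lay on both sides of the level of the other bins. The list had 10 measured genes, 3 of them at least 1.5-fold higher and 3 at least 1.5-fold lower, with a median ratio of 0.768. Higher were Nr5a2, a nuclear receptor needed for ovulation in mice, at 5.52 (4.82 to 6.34), the activin subunit gene Inhba at 4.86, and Fst, which encodes the activin-binding protein follistatin, at 4.39 (3.74 to 5.17). Lower were Hsd17b1 at 0.409 (0.185 to 0.815), the gap junction gene Gja1 at 0.479 (0.423 to 0.542) and Foxl2, a granulosa identity factor, at 0.629 (0.464 to 0.842). Among the genes with too few counts to be measured, Fshr, the FSH receptor, had 5 counts in members and 0 in other bins, Amh had 0 and 6, and aromatase (Cyp19a1) had 0 and 4. These 3 were picked out after their values were seen.

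Markers of most other cell types were lower in the members. All 12 measured macrophage genes of 14 were at least 1.5-fold lower, with a median ratio of 0.170 and a summed level of 141 CPM in members and 978 CPM in other bins. C1qa stood at 30.5 CPM in members and 275 CPM in other bins, a ratio of 0.111 (0.0696 to 0.169). All 12 measured oocyte genes were lower by that size, with a summed ratio of 0.119 (0.0828 to 0.165), 37 counts in members and 637 in other bins. Oocyte counts were absent from 143 of 176 member bins and 572 of 708 other bins, so most bins of both groups had none. The highest bin had 1835 CPM of the oocyte list among members and 22019 CPM among other bins. In the 51 bins at a distance of 2 from the large patches lay 250 oocyte counts. Against the bins highest in Ptgfr that were not members, the oocyte ratio was 0.615 (0.374 to 1.02). All 4 measured MHC class II genes were lower, with a summed ratio of 0.171 (0.135 to 0.215). The summed ratios were 0.227 for stromal fibroblast, 0.313 for blood endothelium, 0.342 for surface epithelium, 0.351 for smooth muscle, 0.378 for pericyte and 0.483 for theca genes, and no measured gene of these lists was at least 1.5-fold higher. Aldh1a1 gave 310 of the 389 theca-list counts in members, and the theca ratio without it was 0.457. Cyp17a1, of the same list, had 1 and 6 counts, too few to be measured. Against the non-member bins highest in Ptgfr, the summed ratio was 1.08 (0.906 to 1.29) for theca and 0.836 (0.651 to 1.08) for surface epithelium. Against the non-member bins highest in Hsd3b1, it was 0.466 (0.406 to 0.534) for theca and 1.87 (1.35 to 2.63) for surface epithelium. Stromal fibroblast, blood endothelium, smooth muscle and pericyte ratios were below 1 against both sets. Neutrophil genes had 0 counts in members and 7 in other bins. Red blood cell genes were close to the other bins, with 679 CPM in members and 597 CPM in other bins, a ratio of 1.14 (1.02 to 1.27), but from 0.283 to 1.63 over the alternative settings. The lymphatic list had a summed ratio of 0.794 (0.617 to 1.02), with 1 of its 4 measured genes higher by at least 1.5-fold and 1 lower. The higher one was Lyve1, at 3.06 (1.56 to 6.17), on 24 and 16 counts, while Prox1 was 1.02, Pdpn 0.702 and Mmrn1 0.211. Complement genes were lower in all 9 measured members of the list, among them C3 at 0.124 (0.0812 to 0.181), and IGF-system genes in 7 of 9, among them Igfbp5 at 0.101 (0.0545 to 0.172). Masp1, the complement protease given above with a ratio of 11.6, is not among the measured genes of the complement list.

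All 17 measured genes of the glycolysis and hypoxia list were at least 1.5-fold higher in members, with a median ratio of 3.55. The list had 6826 CPM in members and 2163 CPM in other bins, a ratio of 3.16 (3.02 to 3.30). Bnip3, a mitophagy gene induced by low oxygen, had 344 CPM in members and 39.6 CPM in other bins, a ratio of 8.67 (6.54 to 11.7). Egln3, an oxygen-sensing prolyl hydroxylase, had a ratio of 7.49 (2.95 to 22.6) on 22 and 6 counts, and the glucose transporter gene Slc2a1 one of 6.34 (3.73 to 11.3). Among glycolytic enzyme genes, Aldoa stood at 1278 CPM in members and 596 CPM in other bins, and Ldha at 1088 and 307 CPM. The lowest ratios of the list were 1.92 for Hk1, 1.93 (0.934 to 3.97) for Adm and 2.09 for Pfkl.

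Genes of DNA replication and mitosis lay on both sides of the level of the other bins. The list had 20 measured genes, 6 of them at least 1.5-fold higher and 6 at least 1.5-fold lower, with a median ratio of 1.14. Rrm2, a subunit of ribonucleotide reductase, had 249 CPM in members and 28.6 CPM in other bins, a ratio of 8.73 (6.26 to 12.4). The mitotic genes Ube2c and Ccnb2 had ratios of 3.19 (1.64 to 6.40) and 2.23 (1.34 to 3.73), and the replication helicase genes Mcm3 and Mcm6 were 0.439 (0.257 to 0.718) and 0.538 (0.283 to 0.962). Among 7 cell cycle inhibitor genes, Cdkn1a, which encodes p21, was the 1 higher gene, with 312 CPM in members and 38.3 CPM in other bins, a ratio of 8.14. Cdkn2b and Cdkn2a were 0.0659 (0.00781 to 0.248) and 0.219 (0.0426 to 0.709), on 2 and 3 counts in members.

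**Figure D3:**
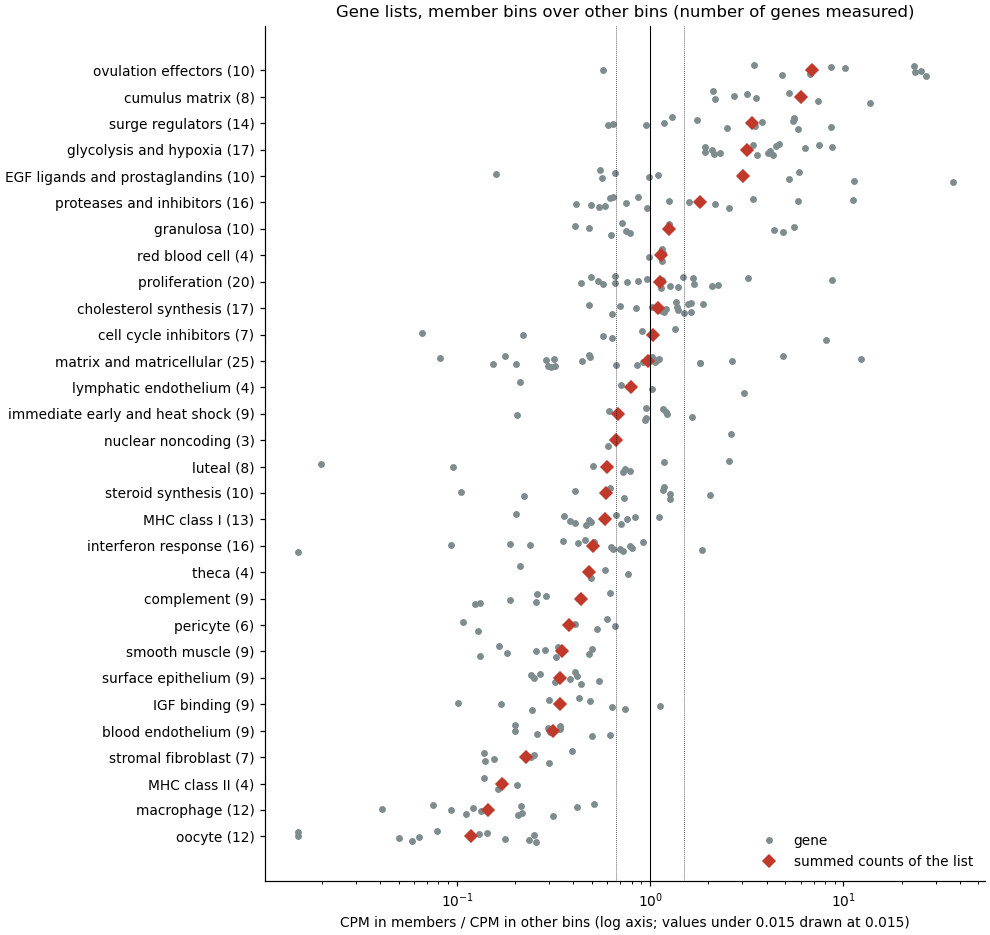
Ratio of CPM in member bins to CPM in other bins on a log axis for each measured gene (grey) and for the summed counts (red) of 30 gene lists, with the number of measured genes in brackets and dotted lines at 1.5-fold either way; values under 0.015 are drawn at 0.015. Measured genes have at least 20 counts in members and other bins together, so a gene could pass through its member counts alone. All 17 measured glycolysis and hypoxia genes and all 8 measured cumulus matrix genes lie right of the upper dotted line. All 12 measured macrophage and all 12 measured oocyte genes lie left of the lower one.

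The patches were not uniform from inside to outside. Of the 176 members, 69 were interior bins, whose 8 neighbours were all members, and 107 were rim bins. The rim bins of this comparison include the 17 members outside the 2 large patches. Among 3487 genes with at least 50 counts over the members, 298 (8.55%) were at least 1.5-fold higher in the interior than in the rim and 251 (7.2%) at least 1.5-fold lower. Interior bins held a median of 5715 counts and rim bins 2622, and the part of this gap in the ratios was not tested. The summed glycolysis and hypoxia list had 8224 CPM in the interior and 5050 CPM in the rim, a ratio of 1.63 (1.54 to 1.73). Vegfa was 2.67 (2.08 to 3.45) times, Bnip3 2.30 (1.73 to 3.09) times, Rrm2 3.44 (2.37 to 5.12) times and Vcan 1.61 (1.48 to 1.75) times as high in the interior. The red blood cell list was lower there, with 142 CPM in the interior and 1361 CPM in the rim, a ratio of 0.105 (0.0785 to 0.137). Pericyte, smooth muscle and fibroblast lists had ratios of 0.216, 0.252 and 0.317, blood endothelium one of 0.377 and theca one of 0.438. The theca list had 330 CPM in the interior, 753 CPM in all 107 rim bins and 658 CPM in the 90 of the large patches. Timp1 at 0.700 (0.650 to 0.754) and Nts at 0.252 (0.134 to 0.450) were also lower in the interior, as was Cd44 at 0.217 (0.0858 to 0.487).

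Outside the 2 large patches the genes followed different profiles with distance, taken over all kept bins, the 17 members outside these patches included. Here the rim is the 90 rim bins of these patches. Adamts1 had 4567 CPM in the interior, 4061 CPM in the rim and 374 CPM in the bins that touch the patches, a step that the ranking itself fixed. Vcan had 4107, 2654 and 514 CPM in the same zones, and Edn2 97.2, 120 and 11.7 CPM. Timp1 went on beyond the edge, with 3156 CPM in the interior, 4641 CPM in the rim, 3916 CPM in touching bins, 1986 CPM at a distance of 2 bins and 1073 CPM beyond 5 bins. Nts had 37.9, 157 and 87.5 CPM in the first 3 zones and 7.20 CPM beyond 5 bins. The macrophage gene Lyz2 had 14.2 CPM in the interior, 25.2 CPM in the rim, 128 CPM in touching bins and 382 CPM at 2 bins. Col3a1 was highest in touching bins, at 2556 CPM, against 140 CPM in the interior, and Hsd3b1 had 2578 CPM in the interior, 5889 CPM in touching bins and 17183 CPM beyond 5 bins. Cyp11a1 had 6479, 7943 and 6782 CPM in the interior, the rim and the touching bins.

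**Figure D4:**
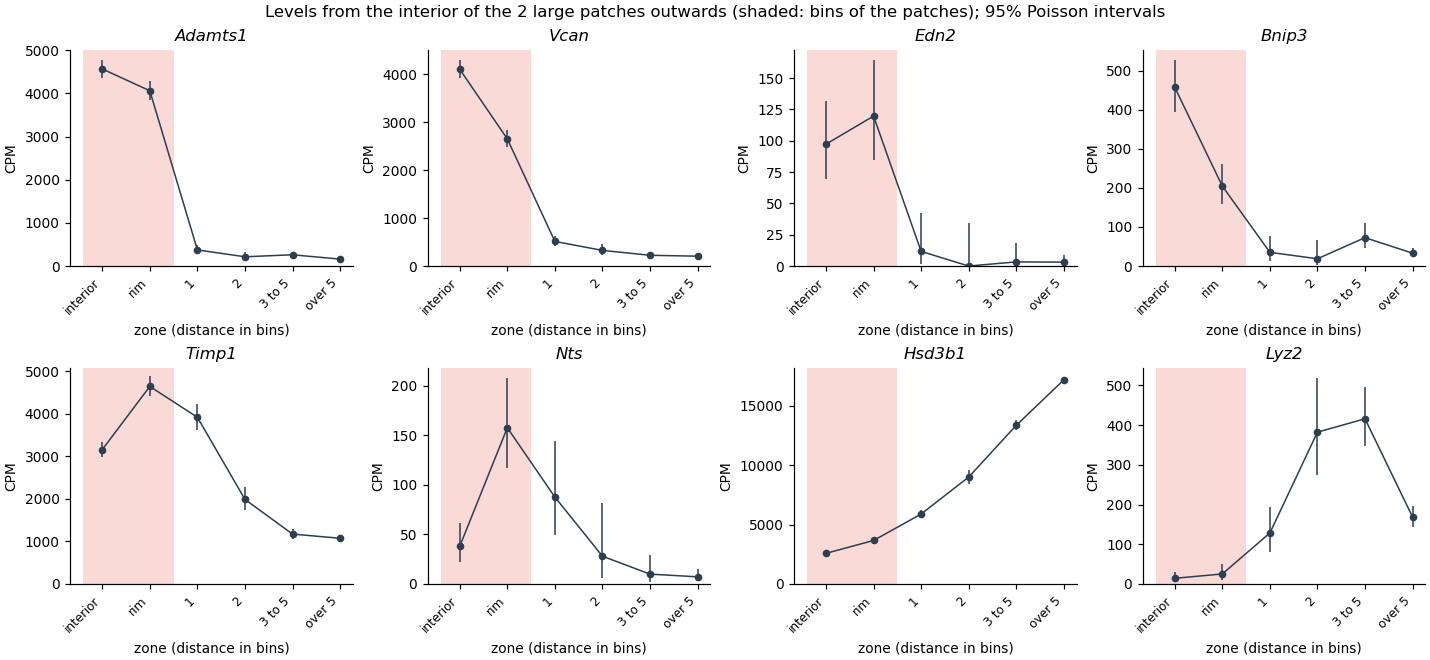
CPM with 95% Poisson intervals of 8 genes in the interior and rim of the 2 large patches (shaded) and in all remaining kept bins by distance in bins from the patches. Adamts1, Vcan, Edn2 and Bnip3 drop at the edge of the patches, Timp1 and Nts are highest in the rim, and Hsd3b1 and Lyz2 are lowest in the interior.

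Few genes differed by that size between the 2 large patches. Of 3425 genes with at least 50 counts over both, 209 (6.1%) were at least 1.5-fold higher in patch 1 and 180 (5.26%) at least 1.5-fold higher in patch 2. Of the 1031 genes at least 1.5-fold higher in members, 778 passed that size in each patch taken alone, with no count minimum within a patch, and of the 1603 lower genes 1136 did. Patches 1 and 2 held 494402 and 244934 of the 753780 member counts that made these calls. These numbers are therefore not a replication, and the share of all 7751 genes that passed in both patches is not given. Timp1 had 3825 CPM in patch 1 and 3732 CPM in patch 2, a ratio of 1.02 (0.947 to 1.11), and Nr5a2 had 1052 and 1053 CPM. Spp1 was higher in patch 1, with 1715 CPM there and 1057 CPM in patch 2, a ratio of 1.62 (1.41 to 1.87), as was Kl, at 2.58 (1.47 to 4.82), and Bves, at 1.62 (1.36 to 1.93). Cdkn1a was lower in patch 1, with 243 CPM there and 465 CPM in patch 2, a ratio of 0.521 (0.400 to 0.680), and Rrm2 likewise, at 0.575 (0.427 to 0.775). By the fixed rule the genes highest in patch 1 against all other members were Hba-a2 at 6.09, Yrdc at 3.28 and Ralgapa1 at 2.89, and in patch 2 Adam8 and Prpf31, both at 2.40, and Pank3 at 2.29. The summed red blood cell list was 2.20 (1.75 to 2.78) times as high in patch 1 as in patch 2. The 17 members outside the patches had 14444 counts in all and differed, with 2700 CPM of Aldh1a1, of the theca list, against 356 CPM in patch 1 and 388 CPM in patch 2.

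Beads that the ranking did not use gave a check of where Adamts1 lay. The 436 bins with fewer than 500 counts held 55234 counts, of which 33 were Adamts1. In the 63 of these bins that touched a member Adamts1 had 17 of 14072 counts, or 1208 CPM, and in the other 373 it had 16 of 41162 counts, or 389 CPM. The ratio was 3.11 (1.48 to 6.57). Within a distance of 2 bins the ratio was 1.91 (0.903 to 4.17), whose interval includes 1.

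In the young section Adamts1 was too sparse for the same ranking. It had 121 counts in 1306 kept bins, at most 3 in a bin, and 158 of the 261 bins that would make up its highest 20% had none. Levels side by side were 4321 CPM of Adamts1 in the old members, 182 CPM in the other old bins and 23.7 CPM over the young bins. Vcan stood at 3423, 251 and 177 CPM, Timp1 at 3752, 1468 and 263 CPM, and Spp1 at 1473, 119 and 13.7 CPM in the same order. Edn2 had 79, 6 and 0 counts, and Prkg2 had 337, 14.3 and 0.589 CPM. The granulosa list had 3837, 3060 and 13638 CPM. Age, animal and the follicles that each section cut cannot be told apart.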

How the data were processed

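Slide-seq of 1 old and 1 young mouse ovary section was used. The deposited tables hold whole-number counts per gene and bead, and separate deposited files hold bead positions without a stated length unit. The submitters' processing notes name genome build mm10. Which aligner, counter and annotation were used is not given in the sources used here, nor is whether a count is 1 molecule or 1 read. The old section had 2348768 counts over 10267 beads, a median of 125 per bead, and the young section 5158314 counts over 21403 beads.

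Counts were summed over square bins of 70 units with at least 500 counts, and over groups of bins, with Python 3.11.15, numpy 2.4.6 and scipy 1.17.1. Ratios of CPM have exact conditional binomial (Clopper-Pearson) 95% intervals and levels exact Poisson intervals, for counting error only. PCR copies are not independent molecules, so intervals may be too narrow. No test was made, because bins of 1 library are not replicates. "Called" means at least 1.5-fold, among genes with at least 50 counts over the kept bins (20 for lists). The ratio step was run on simulated independent Poisson counts with known ratios. The intervals assume counts of that kind, so this checks the computation only.

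Named genes other than Adamts1 are the 15 highest and 10 lowest ratios among genes with at least 50 counts and at least 20 CPM in 1 group, without mitochondrial, ribosomal protein and predicted or clone names. Of each list described, they are at most 3 of the highest, 3 of the lowest and the 2 measured genes with the most counts. Per patch of at least 10 bins, they are the 3 genes highest against the other members. Vcan and Timp1 were added. Some genes that this rule names are not reported here. The members and lists were chosen with earlier results of these data known. Gene names are those of the files, of which 16356 of 18394 matched RefSeq names (GRCm38.p6). Alternatives were other bin sizes, count minimums, member shares, scalings, thinning, weighting and rankings, other definitions of both groups, and leaving out each quadrant of the section.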

Additional observations from a re-analysis of the deposited data

How the results depend on the processing

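No paired analysis was possible because each age has 1 section and members and other bins come from the same library. The members formed 2 patches of at least 10 bins under each of the 8 alternatives run for patches. The number of higher genes, at 1031, was 328 with bins thinned to 500 counts (201 of them shared) and 347 with a minimum of 200 counts. The number of lower genes, at 1603, was 398 after thinning (230 of them shared), 369 with a minimum of 200 counts and 2750 with a minimum of 20. Thinning left 1978 genes to count, and the minimums of 200 and 20 left 2607 and 10474, against 7751. Vcan, at 13.7, had a ratio of 6.00 with the top 10% as members, 11.2 with bins of 42 units, 11.9 with the top 30%, 12.2 without the largest patch, 11.3 without the quadrant of low x and high y, and 16.0 against other bins that do not adjoin a member. Timp1, at 2.56, had 1.64 with the top 10% as members, 2.09 with bins of 42 units and 2.86 with bins of 98. It had 2.82 with equal weight per bin, 2.80 when bins were ranked with their 8 adjoining bins, 2.75 with trimmed-mean scaling and 3.24 against other bins that do not adjoin a member. Without the quadrants of high x and low y, low x and low y, and low x and high y it had 2.85, 2.81 and 2.07. The summed luteal ratio, at 0.595, was 1.11 without the quadrant of low x and high y, the 1 reversal among gene and list ratios past 1.5-fold. Lists nearer to 1 could cross it, such as red blood cell genes at 0.283 to 1.63. Beyond the gene numbers, the cause of these shifts was not tested. The trimmed-mean scaling made 49.6% of calls higher ones, against 39.1%. The alternatives with 1 patch or both large patches only were chosen after seeing the data. Ratios of single genes moved over all alternatives, from 7.72 to 65.8 for Edn2, 5.52 to 30.2 for Prkg2, 3.31 to 15.3 for Spp1 and 1.34 to 14.6 for Masp1. Depth limits what the ratios of genes with few counts can show, as their intervals give.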
